A study of Sus scrofa with 2 samples.

Results

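The cells described here are the iNKT thymocytes with the strongest interferon signature in a pig thymus. Invariant natural killer T (iNKT) cells are T cells that carry a nearly fixed T cell receptor, recognise lipids held by CD1d and leave the thymus already poised to secrete cytokines. Each cell of the iNKT library was given a score, the UMIs (unique molecular identifiers, each marking 1 captured transcript) of ISG15, RSAD2, MX1, MX2 and OAS1 divided by all its UMIs. A sixth gene of the rule, IFIT3, was not used here, so the score rests on these 5. The highest 5% of cells were taken as the score-high cells. They were 564 of the 11273 iNKT cells that passed the filters on cells, and those 11273 were in turn part of 19299 cells over both libraries of the study. The remaining 10709 iNKT cells are called the other iNKT cells.

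Interferons are secreted proteins that warn cells of infection. Type I interferons bind the receptor pair IFNAR1 and IFNAR2, whose kinases JAK1 and TYK2 activate transcription factors, STAT2 with IRF9 among them. These switch on interferon-stimulated genes, which sense foreign nucleic acids, block viral replication and tune the response itself. Gamma interferon acts through IFNGR1 and IFNGR2 and favours the guanylate-binding proteins, CXCL9 and CXCL10, and antigen presentation. In the thymus, stromal and myeloid cells are known to make type I and type III interferon in the absence of infection, and maturing thymocytes respond to it.

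The study sequenced total thymocytes and iNKT thymocytes from 2 pigs of mixed breed, aged 22 weeks and untreated, with 10x Genomics Chromium 3′ chemistry, version 3.1. The iNKT cells had been enriched on magnetic beads, and live cells were then sorted by flow cytometry. Cells of the 2 pigs were mixed, so there was 1 library of each kind, no replicate, and no test of any difference below. Levels are in CPM, the UMIs of a gene out of each 1000000 UMIs summed over a group of cells. Ratios are the CPM of the score-high cells divided by that of the other iNKT cells, and the brackets after a ratio or a share hold its 95% interval, which covers counting error only. Genes are read within themselves, never against each other's level.

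The iNKT library held 12097 barcodes, of which 93.2% passed the filters, and the total thymocyte library held 9112, of which 88.1% passed. Score-high cells carried a median of 3988 UMIs, 1461 genes and 4.61% mitochondrial UMIs, and the other iNKT cells 4220 UMIs, 1511 genes and 4.89%. The libraries shared 41 barcodes, of which 1 belonged to a score-high cell and 36 to other iNKT cells. Doublets were not removed, because the Scrublet caller marked 1 of 11273 cells.

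The score formed a continuous scale with no gap at the chosen limit. The lowest score-high cell stood at 3158 CPM of score UMIs and the highest cell outside at 3151. The median was 4893 in score-high cells and 266 in the others, the highest value was 37793, and 3716 iNKT cells (33.0%) had no score UMI at all. A score-high cell held between 5 and 200 score UMIs with a median of 21, and 36 of the 564 held fewer than 10, whereas the others held a median of 1. Of the score-high cells, 492 had UMIs of at least 3 of the 5 genes and 19 had UMIs of 1 gene.

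ISG15, a ubiquitin-like protein that is both attached to other proteins and secreted, supplied 68.9% of the score UMIs of these cells. Its level was 4750 CPM against 264 in the others. RSAD2 (viperin), which makes a chain-terminating nucleotide, was at 505 against 29.3 CPM. The dynamin-like GTPases MX1 and MX2, which trap viral nucleocapsids, were at 1204 against 135 and at 421 against 49.5 CPM. OAS1, an oligoadenylate synthetase, had 26 UMIs in score-high and 11 in other cells. All 5 chose the cells, so these values describe the choice. With ISG15 left out of the score, 395 of the 564 cells were still chosen, and ISG15, now unused, was 13.3-fold higher in the cells so chosen. The same exercise gave 15.6-fold for RSAD2, 7.60-fold for MX1 and 7.14-fold for MX2, each left out in turn.

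Genes outside the score were read in the same cells. Of 8684 genes with at least 100 UMIs over the 2 groups, 103 (1.19%) were at least 2-fold higher in score-high cells and 181 (2.08%) at least 2-fold lower. The 103 stood on firmer counts than the 181. The interval lay wholly above 2 for 59 of the 103 and included 1 for 3. It lay wholly below 0.5 for 7 of the 181 and included 1 for 114. The median of all 8684 was −0.04 on the log2 scale, so the median gene was nearly level.

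Most of the genes that stood highest were known interferon-stimulated genes. Among the 20 genes with the highest lower bound, 16 were on the lists of such genes drawn up for this work, and CXCL10 was on the list of gamma interferon targets. The lists were chosen with earlier results of these data known, so counts of listed genes are not independent of the data. Pooled over the 73 listed interferon-stimulated genes that were measured, score-high cells held 16511 CPM and the other iNKT cells 5666, a ratio of 2.91 (2.88 to 2.94). Of those 73, 69 had 100 UMIs or more, and 42 of the 69 were at least 2-fold higher, beside 1.19% of all genes. None was 2-fold lower, beside 2.08% of all genes, and the interval lay above 1 for 60. Their median log2 ratio was 1.32. The 4 below the minimum were OASL with 1 UMI in score-high and 0 in other cells, BATF2 with none in either, UBA7 with 2 and 6, and DDX58 with 16 and 46.

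**Figure D1:**
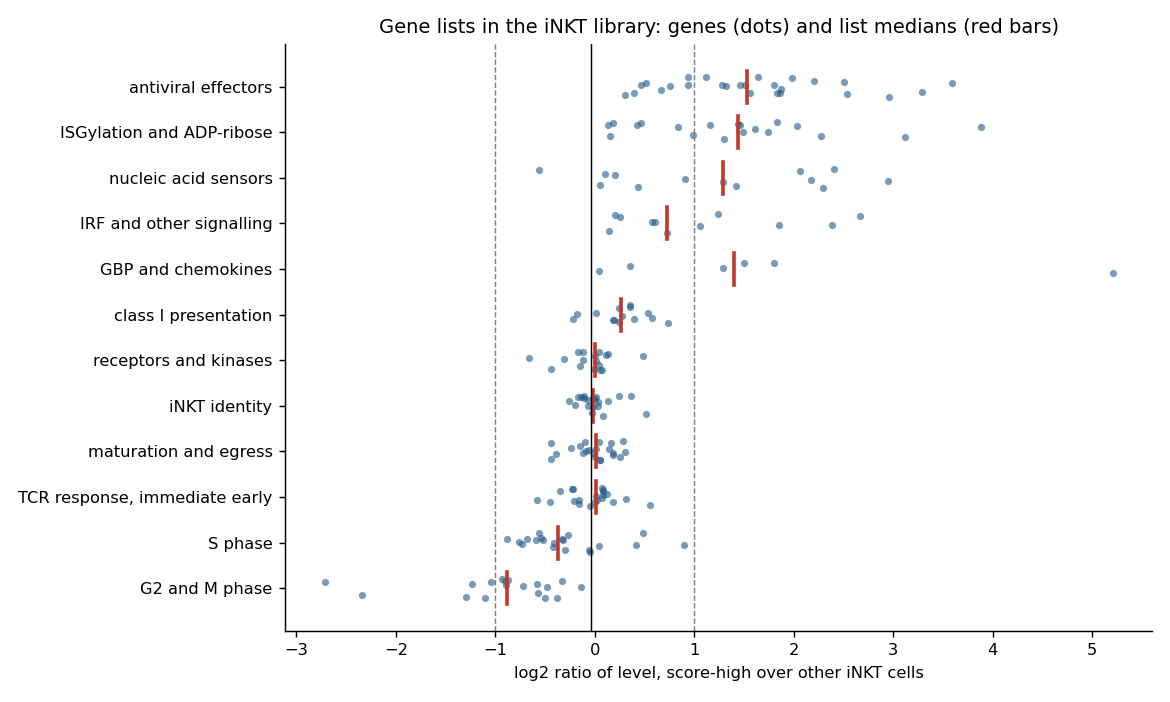
Log2 ratio of level between score-high and other iNKT cells on the horizontal axis, for each gene with at least 100 UMIs (dots, spread vertically at random) in 12 gene lists, with list medians as red bars, the median of all genes tested as a black line and 2-fold as dashed lines. The 4 interferon-stimulated lists and the list of guanylate-binding proteins and chemokines have medians from 0.72 to 1.53, class I presentation sits at 0.26, receptors and kinases, identity, maturation and receptor-response genes lie near 0, and the G2 and M phase median is −0.88.

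Upstream of the response, few interferon transcripts were found and receptors were level. Neither group held a UMI of IFNG, IFNB1, IFNA1 or IFNK. IFN-ALPHA-8, one of a family of near-identical alpha interferon genes between which counts may be split, had 10 UMIs in score-high and 142 in other cells, a ratio of 1.46 (0.685 to 2.76). IFNE had 3 and 34 UMIs, and IFN-DELTA-1 had 0 and 31.

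The receptors and their kinases were level between the groups. IFNAR1 stood at 63.2 against 70.5 CPM (ratio 0.896, 0.758 to 1.05) and IFNAR2 at 33.4 against 30.6 (1.09, 0.865 to 1.37). IFNGR1 and IFNGR2 were each at a ratio of 1.02, and JAK1 was at 589 against 585 CPM (1.01, 0.954 to 1.06). TYK2, the other kinase of the type I receptor, had 24 UMIs in score-high cells and a ratio of 0.723 (0.460 to 1.08). The list of 19 also holds the feedback regulators SOCS3, PTPN2 and PTPN6. Of its 17 genes with enough UMIs none was 2-fold higher or lower, beside 1.19% and 2.08% of all genes. Every interval included 1. Pooled, the list was at a ratio of 0.985 (0.951 to 1.02). IFNLR1, the receptor chain of type III interferon, had no UMI in either group.

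Of the transcription factors that carry the signal, IRF7 stood furthest apart. IRF7, which drives alpha interferon genes and is itself induced by interferon, was at 409 against 64.4 CPM, a ratio of 6.34 (5.90 to 6.81), with a UMI in 415 of 564 score-high cells (73.6%) and in 22.1% of the others. ETV7, an ETS factor known to restrain part of the interferon response, was at 51.8 against 9.96 CPM (5.20, 4.25 to 6.33). STAT2 was at 73.8 against 35.5 CPM (2.08, 1.77 to 2.42).

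Its partner IRF9 was barely sampled, with 8 UMIs in score-high and 159 in other cells and a ratio of 1.04 (0.442 to 2.10). IRF1 and IRF2 were higher by less than 2-fold, at 1.48 (1.31 to 1.67) and 1.52 (1.36 to 1.70). SOCS1, an inhibitor of the receptor kinases, was at 1.15 (1.03 to 1.28). In all, 5 of the 11 factors and signalling genes with enough UMIs were at least 2-fold higher, beside 1.19% of all genes. TENT5A, one of these, was counted with 21 UMIs in score-high cells and a ratio of 3.54 (2.11 to 5.65).

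Of the 13 sensors of nucleic acids and their adaptors with enough UMIs, 7 were at least 2-fold higher, beside 1.19% of all genes, and the interval lay above 1 for 9. ZBP1, which binds Z-form nucleic acid, was at 41.2 against 5.37 CPM (7.67, 6.04 to 9.67). The helicases DDX60 and DHX58 (LGP2) were at 5.30 (4.73 to 5.92) and 4.91 (4.40 to 5.47), and IFIH1 (MDA5), which detects long double-stranded RNA, was at 4.18 (3.80 to 4.60). ZNFX1, a helicase that recognises viral RNA at mitochondria, was at 176 against 39.2 CPM (4.49, 4.04 to 4.99).

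CGAS, the cytosolic DNA sensor, stood at 203 against 75.8 CPM (2.67, 2.43 to 2.93), and TLR3 at 15.5 against 6.41 (2.42, 1.68 to 3.39). The 6 under 2-fold were the adaptors TMEM173 (STING), MYD88 and MAVS at ratios of 1.15, 1.07 and 1.33, the class I activator NLRC5 at 1.86 (1.52 to 2.27), the helicase DHX36 at 1.03 (0.904 to 1.17) and MLKL. MLKL, the executioner of necroptosis, had 9 UMIs in score-high cells and a ratio of 0.643 (0.291 to 1.24).

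Antiviral effectors formed the largest group, with 18 of 26 at least 2-fold higher, beside 1.19% of all genes, and a pooled ratio of 3.19. IFIT1, which binds viral RNA that lacks the host's cap methylation, was at 649 against 66.3 CPM (9.78, 9.21 to 10.4). IFIT5 had 88 UMIs in score-high and 152 in other cells, a ratio of 12 (9.12 to 15.7), and IFIT2 had 88 and 316 (5.77, 4.50 to 7.33). ISG20, an exonuclease that degrades single-stranded RNA, was at 331 against 42.5 CPM (7.77, 7.16 to 8.43).

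OAS2, which makes the oligoadenylate messenger, was at 227 against 40.1 CPM (5.66, 5.14 to 6.22). CMPK2, a mitochondrial nucleotide kinase whose gene lies beside RSAD2 in mammals, was at 137 against 29.8 CPM (4.60, 4.07 to 5.18). EIF2AK2 (PKR), which halts translation on double-stranded RNA, was at 3.57 (3.35 to 3.80).

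Some effectors were abundant outside the score-high cells too. IFI6 was at 3661 CPM in score-high cells and already at 998 in the others (3.67, 3.58 to 3.75), with UMIs in 552 of 564 score-high cells. IFITM3, a membrane protein that blocks viral fusion and has near-identical relatives among which reads may be split, was at 1815 against 617 CPM (2.94, 2.85 to 3.04). The lowest ratios of the group were those of SAMHD1, which depletes nucleotides, at 1.23 (1.08 to 1.40), and LY6E at 1.31 (1.15 to 1.49).

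Enzymes that attach and remove ISG15 were among the most different genes. HERC5, the ligase that couples ISG15 to newly made proteins, was at 151 against 10.3 CPM, a ratio of 14.7 (12.8 to 16.8), and had a UMI in 232 score-high cells (41.1%) against 4.17% of the others. USP18, which removes ISG15 and dampens signalling at IFNAR2, was at 242 against 27.9 CPM (8.66, 7.85 to 9.54). HERC6 was at 4.84 (4.41 to 5.30) and UBE2L6, the conjugating enzyme for ISG15, at 3.34 (3.11 to 3.59).

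The ADP-ribosyltransferase PARP14 was at 446 against 109 CPM (4.09, 3.83 to 4.37). PARP12, PARP9 and its partner DTX3L were at 2.74, 2.45 and 3.55. Their relatives PARP8 and HERC3 were at 1.11 (0.934 to 1.30) and 1.13 (0.952 to 1.33). The lowest of this group was the exonuclease XRN1 at 1.09 (0.956 to 1.25). Of the 19 genes of ISG15 conjugation, ubiquitin and ADP-ribose with enough UMIs, 12 passed 2-fold, beside 1.19% of all genes, with a pooled ratio of 2.85.

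**Figure D2:**
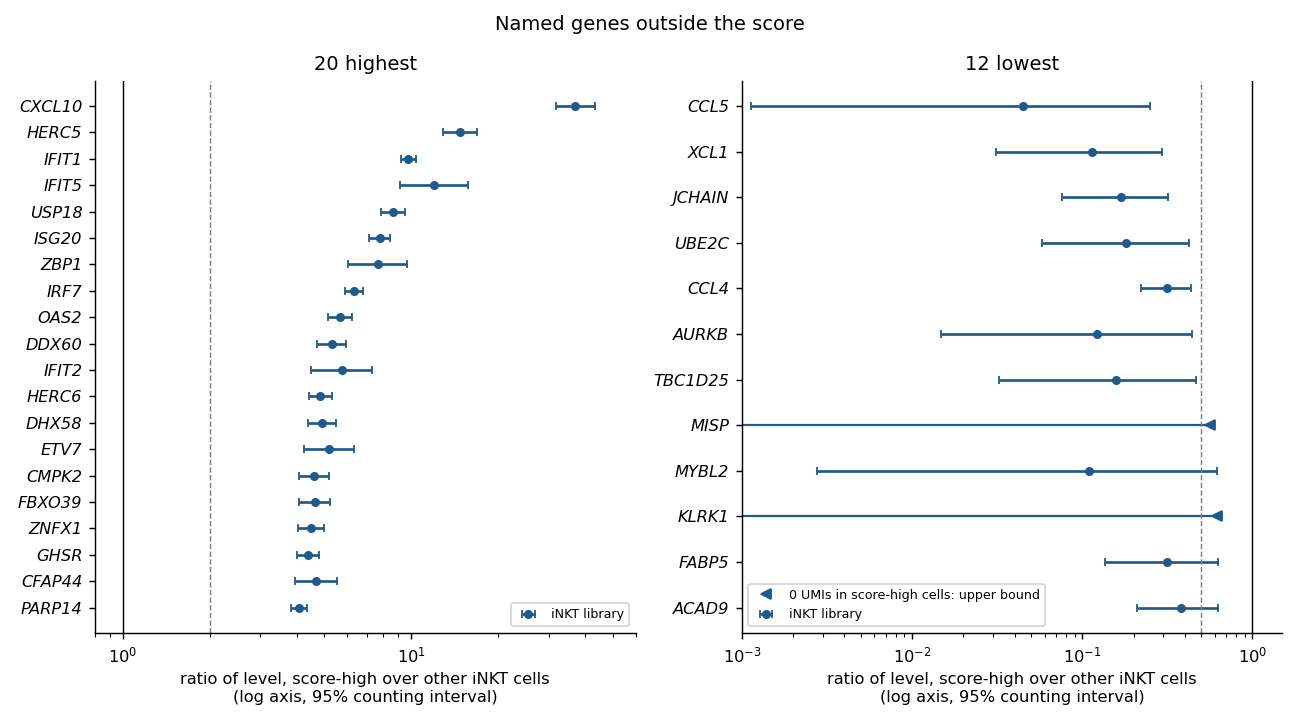
Ratio of level between score-high and other iNKT cells (log axis) for the 20 genes outside the score with the highest lower bound (left) and the 12 with the lowest upper bound (right), with 95% counting intervals, 2-fold as dashed lines and, for genes without a UMI in score-high cells, the upper bound alone. The intervals of the 20 all lie above 2, from PARP14 at 4.09 to CXCL10 at 37.0, and the ratios on the right, where a UMI was found, run from CCL5 at 0.0448 to ACAD9 at 0.378 with wide intervals.

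CXCL10, the chemokine that recruits CXCR3-positive T cells, had the highest ratio of all tested genes and the most uneven spread. It had 461 UMIs in score-high cells and 258 in the others, at 188 against 5.08 CPM (37.0, 31.7 to 43.3). These came from 50 of the 564 score-high cells, 10 cells held 74.4% of them, 1 cell held 82, and the median positive cell held 2. Outside, 1.03% of cells had a UMI. Without the score-high cells that held 5 or more CXCL10 UMIs the ratio was 4.75. The related CXCL9 and CXCL11 had 0 UMIs in score-high cells and 2 each in the others.

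The guanylate-binding proteins GBP1 and GBP2, which attack pathogen-containing vacuoles, were at 3.48 (3.19 to 3.79) and 2.44 (2.10 to 2.83). CD274, the inhibitory ligand PD-L1, had 12 and 91 UMIs (2.73, 1.36 to 5.01). IRF8 was at 1.25 (0.773 to 1.92) and the tryptophanyl-tRNA synthetase WARS at 1.01 (0.723 to 1.39). With CXCL10, 4 of the 6 genes with enough UMIs on the list of gamma interferon targets passed 2-fold, beside 1.19% of all genes. The other 5 measured had few UMIs, with CIITA at 2 in score-high cells and CXCL9, CXCL11, IDO1 and ICAM1 at 0. Whether gamma or type I interferon lay behind the values of this list was not tested.

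The measured genes of class I presentation, a classical interferon target, were higher by a small margin. Of 24 listed genes 14 were matched by name. Those not matched include SLA-1, SLA-2, SLA-3, SLA-5, SLA-6, SLA-7, SLA-8 and SLA-11, so the levels of these class I genes were not read. B2M, the light chain of class I molecules, was at 9595 against 8100 CPM (1.18, 1.17 to 1.2). The peptide transporters TAP1 and TAP2 were at 1.67 (1.54 to 1.81) and 1.49 (1.31 to 1.68), and the immunoproteasome subunit PSMB9 at 1.45 (1.37 to 1.53). PSMB10 was at 1.31 (1.2 to 1.43), while the chaperones CALR and CANX were at 0.859 (0.795 to 0.927) and 0.881 (0.761 to 1.01). None of the 14 genes with enough UMIs passed 2-fold, as for nearly all genes (1.19% higher and 2.08% lower). The interval lay above 1 for 9 and below 1 for 1, and the pooled ratio was 1.2 (1.18 to 1.21).

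Levels followed the score within the score-high cells and below their limit. From the lower 50% of iNKT cells through the bands of 25 to 50%, 10 to 25%, 5 to 10%, 2.5 to 5%, 1 to 2.5% and the top 1% (113 cells), HERC5 was at 3.26, 9.22, 23.6, 48.7, 93.7, 162 and 282 CPM. IFIT1 went from 39.3 CPM in the lowest band to 361, 645 and 1405 in the 3 score-high bands. IFI6 went from 679 to 3119, 3761 and 4917 CPM. Each of these was higher in each band than in the band below it, with no step at the 5% limit.

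CXCL10 had another shape. It was at 3.22 CPM in the lowest band, 25.8 at 5 to 10%, 8.89 at 2.5 to 5%, 126 at 1 to 2.5% and 751 in the top 1%. B2M ranged only from 7751 to 10376 CPM from the lowest to the highest band, and ZBTB16, the factor PLZF that defines iNKT development, stayed between 211 and 240 CPM.

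**Figure D3:**
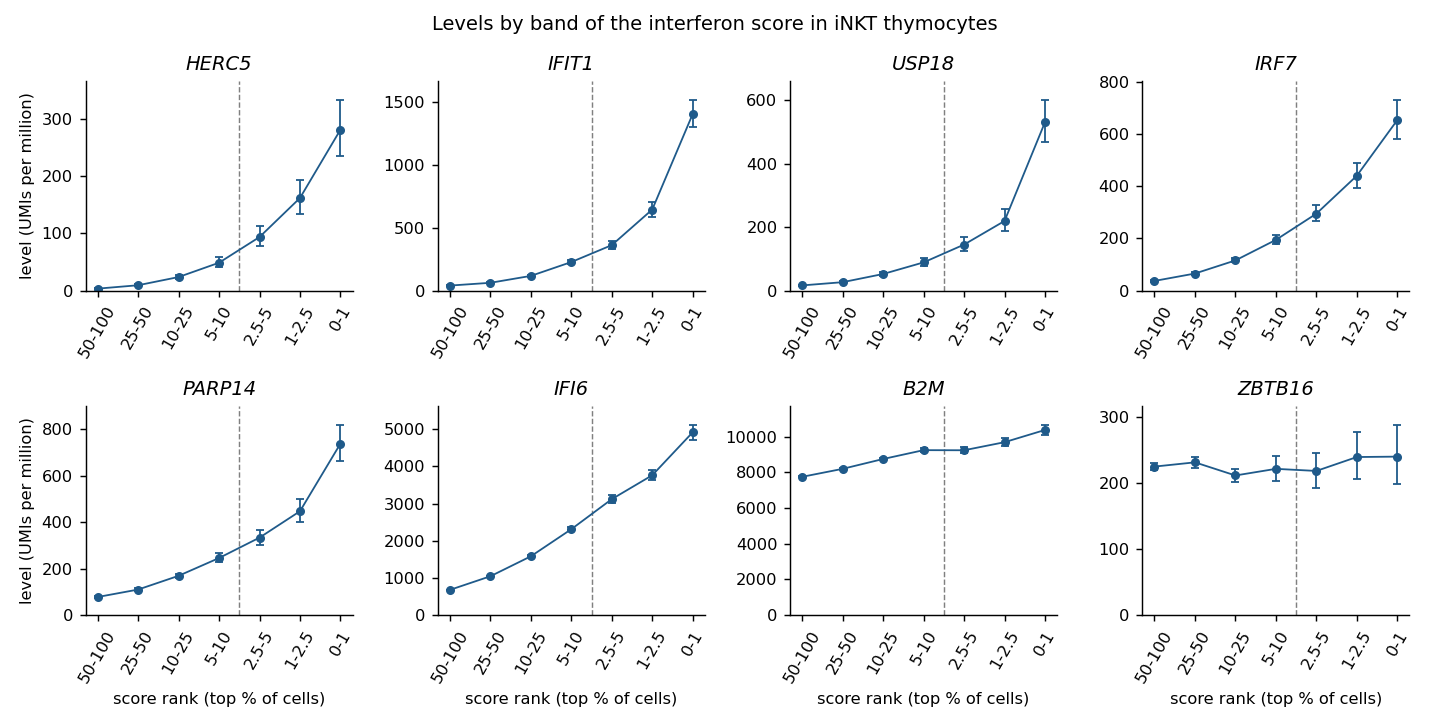
Level in CPM (points, with 95% counting intervals) of 8 genes outside the score over bands of the interferon score, from the lower 50% of iNKT cells on the left to the top 1% on the right; the dashed line marks the 5% limit of the score-high cells. HERC5, IFIT1, USP18, IRF7, PARP14 and IFI6 are higher in every band than in the one before, B2M spans 7751 to 10376 CPM, and ZBTB16 stays between 211 and 240 CPM.

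Single cells showed the same breadth. With every cell thinned to 2000 UMIs, which left out 14 score-high and 294 other cells, score-high cells had UMIs of a median of 17 of the 73 interferon-stimulated genes outside the score (range 2 to 37) and the others of 8 (range 0 to 24). Without thinning the medians were 27 and 15. The others' 95th percentile was 15 genes, which 412 of 550 score-high cells (74.9%) reached, against 5.73% of the others. The distributions overlapped, so that part of the cells chosen by the score lay within the usual range of the rest in these other genes. In the thinned cells IFIT1 was found in 61.1% of score-high cells (56.9 to 65.2) and 12.1% of others, IRF7 in 52.4% (48.1 to 56.6) and 11.7%, and HERC5 in 24.4% (20.8 to 28.2) and 1.68%.

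**Figure D4:**
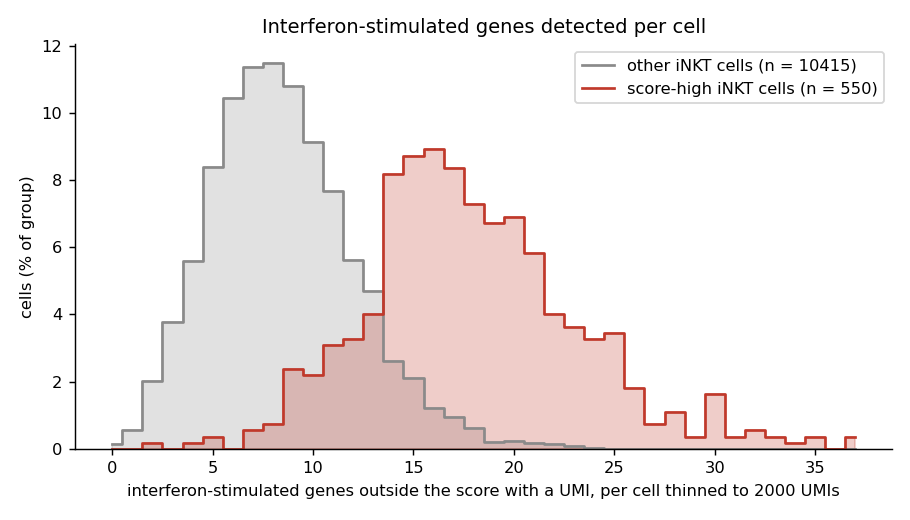
Number of the 73 interferon-stimulated genes outside the score with a UMI in a cell thinned to 2000 UMIs (horizontal axis) against the percentage of cells of each group (vertical axis), for 550 score-high and 10415 other iNKT cells. The medians are 17 and 8, and the distributions overlap between 2 and 24 genes.

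T cell and iNKT identity genes differed little between the groups. CD3D and CD3E, parts of the T cell receptor complex, were at ratios of 0.976 (0.926 to 1.03) and 0.989 (0.953 to 1.03), while CD3G had 1 and 6 UMIs. ZBTB16 was at 229 against 224 CPM (1.02, 0.935 to 1.11), IL4, the cytokine iNKT cells are known to make in the thymus, at 24.9 against 25.4 (0.981, 0.746 to 1.27), and TNFRSF4 (OX40) at 1324 against 1254 (1.06, 1.02 to 1.09). Of the 20 identity genes with enough UMIs, of 24 measured, none passed 2-fold either way, as for nearly all genes (1.19% higher and 2.08% lower). The range ran from IL2RB at 0.834 (0.703 to 0.983) to SLAMF6 at 1.42 (1.11 to 1.78). TBX21 and EOMES, factors of other effector programmes, had 1 and 0 UMIs in score-high cells.

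Of 22 maturation and egress genes none passed 2-fold, as for nearly all genes (1.19% higher and 2.08% lower). The interval lay above 1 for 6 and below 1 for 6, and the median log2 ratio was 0.01. The lowest ratio was that of CXCR3, with 3 UMIs in 1 score-high cell (0.634, 0.129 to 1.91). KLF2, which drives thymic exit, was at 1.04 (0.986 to 1.1), its target S1PR1 at 0.987 (0.819 to 1.18) and CCR7 at 0.961 (0.912 to 1.01). CCR9 and CCR4, receptors of earlier thymocytes, were at 0.734 (0.591 to 0.903) and 0.760 (0.664 to 0.865). The highest ratios were those of GIMAP4 and ANXA1, at 1.23 (1.03 to 1.46) and 1.22 (1.1 to 1.34).

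Genes of the response to antigen receptor signals gave the same picture. EGR1 was at 1.05 (0.978 to 1.13), NR4A1 at 1.0 (0.733 to 1.34), FOS at 1.06 and PDCD1 at 1.13 (0.998 to 1.28). EGR2 had 39 UMIs in score-high cells and a ratio of 0.659 (0.466 to 0.906), and CD40LG was at 0.895 (0.835 to 0.959). None of 21 passed 2-fold, as for nearly all genes (1.19% higher and 2.08% lower), and the median log2 ratio was 0.02. In the list on cell death, none of 12 genes passed 2-fold, beside the same shares of all genes. BID, which carries death signals to mitochondria, had the highest ratio of that list at 1.49 (1.34 to 1.64).

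Summed UMIs of mitotic genes stood lower in score-high cells. Pooled over the measured genes of the G2 and M phases, score-high cells stood at a ratio of 0.635 (0.584 to 0.689), and 7 of 18 genes with enough UMIs were at least 2-fold lower, beside 2.08% of all genes. These intervals take UMIs as independent. Such UMIs can sit together in few cells, as those of UBE2C in 104 of the other cells, so the intervals are uncertain. AURKB, a mitotic kinase, had 2 UMIs in 2 score-high cells and 340 in the others (0.122, 0.0147 to 0.444). UBE2C, which serves the anaphase complex, had 5 and 576 UMIs (0.180, 0.0582 to 0.422), and among the 7 the interval left out 1 for these and for the motor KIF11 (0.455, 0.181 to 0.948). MYBL2, a cell cycle factor outside the list, had 1 and 189 UMIs (0.110, 0.00276 to 0.618). With cells thinned to 2000 UMIs, scored again and counted, AURKB was at 0.905 and MYBL2 at 1.09, so neither low ratio was kept. UBE2C was at 0 in that setting. Among the original score-high cells, thinned, AURKB was found in 0.364% against 0.739% of the others and UBE2C in 0.182% against 0.566%. MYBL2 was found in 0 of 550 against 0.355% of the others.

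The S phase list was at 0.828 pooled, with none of 20 past 2-fold, as for nearly all genes (1.19% higher and 2.08% lower). Its lowest member was UHRF1 at 0.514 (0.233 to 0.986), and the replication helicase subunit MCM7 was at 0.660 (0.536 to 0.804). G2 and M phase genes were at 168 CPM in the top 1% of the score, between 215 and 376 CPM in the next 5 bands and at 440 CPM in the lower 50%. Score-high cells had a median of 3988 UMIs and the others 4220. With the other cells weighted to depth, UBE2C was at a ratio of 0.264, AURKB at 0.157 and MYBL2 at 0.154. The G2 and M phase list as a whole was not read in that setting, and the part of depth in its difference was not tested.

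Summed UMIs of effector chemokines were also lower, and rested on few cells. CCL5 had 1 UMI in score-high cells and 463 in the others, which came from 41 cells (0.0448, 0.00113 to 0.251). XCL1 had 4 and 723 UMIs (0.115, 0.0312 to 0.295), those of the others in 106 cells. As shares of cells, CCL5 was found in 0.177% of score-high cells and 0.383% of the others, and XCL1 in 0.532% and 0.990%. The ratio intervals take UMIs as independent, so with so few positive cells they are uncertain. CCL4 had 37 UMIs in 15 score-high cells (2.66%) and 2433 in 3.60% of the others (0.315, 0.221 to 0.436). With cells thinned to 2000 UMIs and scored again, CCL4 was at 1.02, so its direction was not kept in that setting. Among the original score-high cells, thinned, CCL4 was found in 1.82% (0.875 to 3.32) against 2.54% of the others (2.25 to 2.87). With the other cells weighted to depth its ratio was 0.317.

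KLRK1, the activating receptor NKG2D, had 0 UMIs in score-high cells and 125 in 34 others, 0.317% of them (ratio 0, upper bound 0.621). The bound takes UMIs as independent, so with few positive cells it is uncertain. Within the list of cytotoxic effectors, CCL5, XCL1 and KLRK1 were the 3 of 9 genes at least 2-fold lower, beside 2.08% of all genes. The interval lay below 1 for 6 of the 9 and above 1 for none, and the pooled ratio was 0.886 (0.860 to 0.913). The abundant members were close to level, with PRF1 (perforin) at 1.02 (0.765 to 1.33), CTSW at 0.862 (0.812 to 0.915) and SRGN at 0.913 (0.880 to 0.948).

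The remaining genes of the 12 lowest belong to no common list. JCHAIN, the joining chain of secreted antibodies, had 9 UMIs in 8 score-high cells and 1112 in 132 others (0.168, 0.0765 to 0.320), so a similar share of cells (1.42% and 1.23%) held very different amounts. Without cells that carried 2 or more UMIs of other lineages, which include JCHAIN itself, its ratio was 2.22. MISP, a spindle-positioning protein, had 0 UMIs in score-high cells and 137 in 16 others, 0.149% of them (ratio 0, upper bound 0.566). That bound takes UMIs as independent, and so few positive cells leave it uncertain. TBC1D25 had 3 and 394 UMIs (0.158, 0.0324 to 0.464), FABP5 8 and 526 (0.315, 0.135 to 0.626) and ACAD9, a mitochondrial dehydrogenase, 15 and 822 (0.378, 0.211 to 0.627).

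Summed markers of other cell types were low in both groups, apart from CD79A. Of the 12 measured myeloid markers, CSF1R, CD68, SPI1, AIF1, LYZ, S100A8, S100A12 and CSF3R were at 0 UMIs in score-high cells. CD14 had 7 UMIs in 7 score-high cells and 128 in the others (1.13, 0.447 to 2.40). The myeloid list summed to 6.93 CPM in score-high cells against 7.93 in the other cells. Plasmacytoid dendritic cell genes summed to 13.0 against 10.5 CPM, NK genes to 46.5 against 47.6, double-positive thymocyte genes to 1.63 against 3.13, epithelial genes to 1.22 against 1.32 and erythroid genes to 2.45 against 1.89. B cell markers were at a pooled ratio of 0.979, nearly all of it CD79A, which was found at 108 against 115 CPM. CD79B had 10 UMIs in 4 score-high cells and 74 in 40 others, a ratio of 2.80 (1.29 to 5.44), and plasma cell genes were at a pooled ratio of 0.663. Off these lists, genes known from antigen-presenting or myeloid cells were also among the 103, of which HLA-DRA, CD86 and NCF4 are named after their values were seen. HLA-DRA was at 2.42 (1.62 to 3.5), with 65.6% of its 32 UMIs in 1 cell, CD86 at 2.30 (1.66 to 3.12) in 40 cells and NCF4 at 2.39 (1.38 to 3.90) in 17 cells. The part of such cells in the results was not tested.

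To see where the score-high cells lay among the iNKT cells, all 11273 were clustered with 496 genes left out, namely the interferon lists, the score, the genes at least 2-fold higher in score-high cells, and mitochondrial, ribosomal and T cell receptor genes. Score-high cells were present in each of the 14 clusters. The largest, cluster 0, led by S100A4, SGPP2 and CD9, held 176 of them, 6.60% (5.68 to 7.61) of its 2668 cells and 31.2% of all score-high cells. Clusters 1, 2, 5 and 7 had shares of 6.10%, 5.42%, 5.61% and 5.59%. Cluster 6, led by DGAT2, PAPLN and OSBPL10 and also by CCR9, had 39 of 1349 cells (2.89%, 2.06 to 3.93), and cluster 10, led by CCL4, RASGEF1A and FCER2, had 6 of 449 (1.34%, 0.492 to 2.89).

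The dividing cells of cluster 12, led by PCLAF and TK1, had 10 of 240 (4.17%, 2.02 to 7.53), at a median depth of 8596 UMIs. Cluster 8, led by PIMREG, CENPA and ASPM, had 1 of 33 (3.03%, 0.0767 to 15.8). Both intervals include the 5% fixed by the rule. Cluster 13, led by JCHAIN, had the highest share, 5 of 35 cells (14.3%, 4.81 to 30.3), at a median depth of 1617 UMIs. CCL5, KLRK1 and XCL1 led cluster 9, where 4 of 96 cells (4.17%, 1.15 to 10.3) were score-high. Within clusters the pooled level of interferon-stimulated genes was higher in score-high than in other cells each time, by 1.64-fold in cluster 11, which had 2 score-high cells, to 3.42-fold in cluster 9. In cluster 0 it was 17298 against 6848 CPM.

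**Figure D5:**
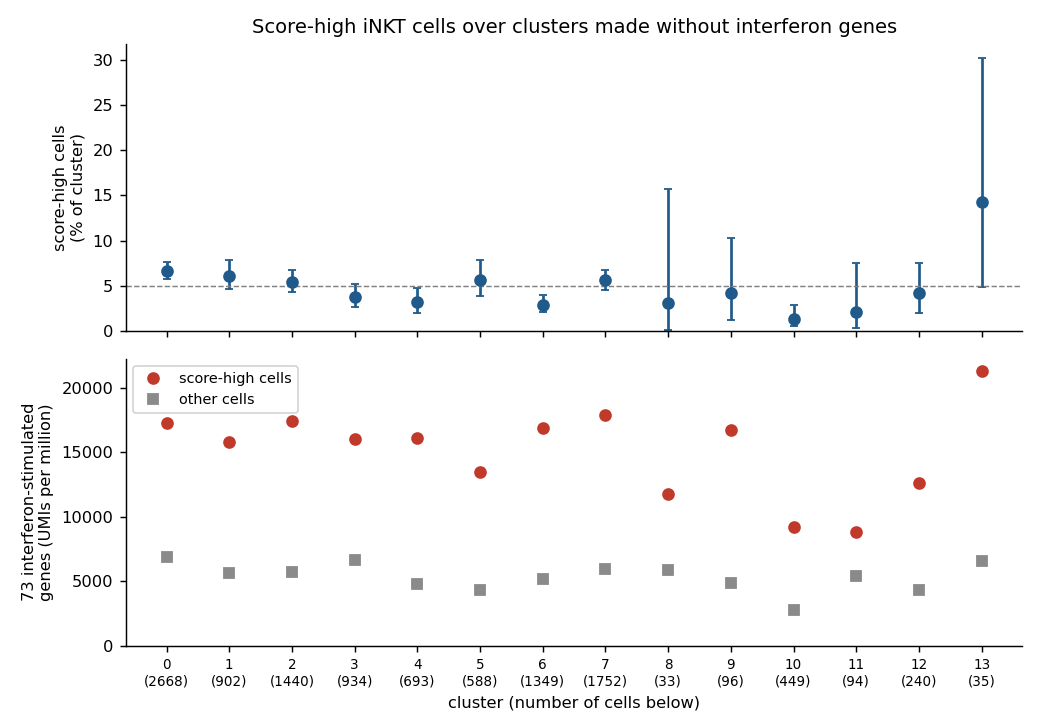
Upper panel, percentage of each iNKT cluster that was score-high (points, with exact 95% binomial intervals; the dashed line is the 5% fixed by the rule); lower panel, summed level of the 73 interferon-stimulated genes outside the score in CPM for score-high (red circles) and other cells (grey squares) of each cluster, with the number of cells under each cluster number. Shares run from 1.34% in cluster 10 to 14.3% in cluster 13, and the red circle lies above the grey square in all 14 clusters.

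Of the 103 genes at least 2-fold higher, 57 were on none of the interferon or class I lists. Several of these are known to respond to interferon in other species, such as PLSCR1 (3.15, 2.82 to 3.52), SLFN11 (3.14, 2.72 to 3.61) and MNDA (2.88, 2.62 to 3.15). Others had higher ratios, and any link of theirs to interferon was not tested. GHSR, the ghrelin receptor, had a UMI in 286 score-high cells (50.7%) and 21.0% of the others, at 249 against 57.0 CPM (4.37, 4.0 to 4.77). FBXO39, an F-box protein, was at 126 against 27.3 CPM (4.62, 4.07 to 5.23), and CFAP44, a protein of cilia, at 71.8 against 15.4 (4.67, 3.94 to 5.51). MORC3, a chromatin ATPase, was at 4.22 (3.67 to 4.83).

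Gene order in the RefSeq annotation of Sscrofa11.1 places GHSR beside TNFSF10 (TRAIL), CCDC180 beside TDRD7, CANT1 beside LGALS3BP and REC8 beside IRF9. In each pair the second gene is known to be induced by interferon. Of the 51 such genes found there, these 4 (7.84%) lay beside a gene of the interferon lists or TNFSF10. So did 75 of all 8143 tested genes outside the lists (0.921%), the 51 among them. TNFSF10 was on the cell death list and on no interferon list. It was added by hand for this count, so the pair with GHSR rests on that addition. UNC45B (3.07, 2.55 to 3.67) lay beside SLFN11, which was on no list, so that pair was not counted. Neighbours that had only a placeholder name could not be matched, so the count depends on the names used. CCDC180 was at 4.58 (3.33 to 6.21), CANT1 at 3.64 (3.25 to 4.07) and REC8 at 2.20 (1.40 to 3.34). Whether transcripts of a neighbour were counted under these names was not tested.

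The same rule was then applied to the total thymocyte library, where the scores were lower. The highest 5% there were 401 cells, the limit was 910 CPM and the median 1423, against 3158 and 4893 in the iNKT library. The iNKT limit was reached by 70 of 8026 total thymocytes (0.872%, 0.681 to 1.1). With cells thinned to 2000 UMIs, at least 7 score UMIs were found in 558 of 10965 iNKT cells, a share of 5.09% (4.68 to 5.52). The share in total thymocytes was 1.28% (0.979 to 1.64), from 61 of 4774, and thinning had left out 3252 of them. With 1 library of each kind, the difference between them had no test.

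Pooled over the interferon-stimulated genes outside the score, these cells held 8043 CPM and the rest of their library 2092, a ratio of 3.85 (3.76 to 3.93), beside 16511, 5666 and 2.91 in the iNKT library. Of 8366 genes with enough UMIs in total thymocytes, 397 (4.75%) were at least 2-fold higher in the high-scoring cells and 707 (8.45%) at least 2-fold lower. Of the 103 genes higher in iNKT score-high cells, 71 had enough UMIs there and 50 of the 71 (70.4%) were at least 2-fold higher. Among interferon-stimulated genes this was 33 of 34, and among those outside the interferon and class I lists 15 of 34 (44.1%). HERC5 was at a ratio of 47.9 and IFIT1 at 34.8 in total thymocytes, each with UMIs in 86 high-scoring cells. CXCL10 was at 38.9, but its 147 UMIs came from 2 of the 401 cells.

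The cells marked there also stood apart in maturation and division genes. They had a median of 2486 UMIs, against 2411 in the rest of that library, and 162 of the 401 held fewer than 2000. Their lower quartile was 1093 UMIs, against 1447 in the rest. A shallow cell needs few score UMIs to reach the limit of 910 CPM. The part of depth in the values of these cells was not tested. In total thymocytes the class I list was at a pooled 7460 against 3286 CPM with 6 of 13 genes past 2-fold. Of 24 maturation genes 13 and of 14 cytotoxic genes 10 were at least 2-fold higher, beside 4.75% of all genes. All 20 G2 and M phase genes and 18 of 20 S phase genes were at least 2-fold lower, beside 8.45%. Among iNKT cells 0 of 22 maturation genes were higher, as for all but 1.19% of genes, and 7 of 18 G2 and M phase genes were lower, beside 2.08%.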

How the data were processed

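The deposited matrices hold whole-number UMI counts per gene and barcode, not normalized, per the file headers and values. Per the file headers they came from Cell Ranger 3.1.0. The tools per the submitters' processing notes were Cell Ranger 3.1 and Seurat 3.1. The genome build was not given in the sources used here. Of 21301 genes, 14846 took a symbol from the deposited gene list and 687 from a table of gene names, and 15513 symbols were usable.

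A cell needed 500 genes or more, and no more than 10% of its UMIs could be mitochondrial (13 genes). Counts were summed per group, with exact conditional binomial intervals for ratios, exact Poisson intervals for levels and Clopper-Pearson intervals for shares, at 95%; all cover counting error only. Log2 ratios used a pseudocount of 0.5 UMIs. Genes needed 100 UMIs over both groups, and a gene was counted as different past 2-fold. With 1 library per kind no significance test was possible.

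The named genes were the 20 with the highest lower bound and the 12 with the lowest upper bound, with, for each list, the 4 highest and 2 lowest members. Other genes in the text were chosen after their values were seen. Members and lists were chosen with earlier results of these data known. Lists held 379 genes, of which 312 were used. Clusters came from scanpy 1.11.5 (2000 variable genes, 30 components, 15 neighbours, Leiden resolution 1), and the genes past 2-fold were left out of them after seeing the data. Scrublet at an expected rate of 8% gave no usable threshold, so doublets remain. TMM factors came from edgeR 4.0.16 as an alternative scaling. Alternatives were other limits of the score, cell filters, scalings, count minimums, scores without 1 gene, thinning, split UMIs, a lower comparator, and removal of likely doublets or of cells with other lineages' markers. Figures were drawn with matplotlib 3.10.9.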

Additional observations from a re-analysis of the deposited data

Results flagged for a closer look

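5 genes lay on opposite sides of 1 among iNKT and among total thymocytes under the same rule, and the difference between libraries was not tested. CCL5 was at a ratio of 0.0448 among iNKT cells and 10.7 among total thymocytes. XCL1 was at 0.115 and 2.59, and CCL4 at 0.315 and 2.03. KLRK1 was at 0 among iNKT cells, where score-high cells had no UMI, and at 6.02 among total thymocytes, and FABP5 was at 0.315 and 6.12. The iNKT values rest on 1 CCL5, 4 XCL1, 37 CCL4, 0 KLRK1 and 8 FABP5 UMIs in score-high cells. The values of total thymocytes rest on few of 401 cells as well, with UMIs of CCL5 in 16, of XCL1 in 31, of CCL4 in 12, of KLRK1 in 11 and of FABP5 in 7. In total thymocytes 10 of 14 cytotoxic genes were at least 2-fold higher in the high-scoring cells, beside 4.75% of all genes. Among iNKT cells 0 of 9 were higher, beside 1.19%, and 3 of 9 lower, beside 2.08%.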

How the results depend on the processing

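The number of interferon-stimulated genes at least 2-fold higher was 42 and stayed between 37 and 48 under every alternative run. The number of all genes higher (103) was 179 for the top 2.5% of cells, 64 for the top 10%, 247 with a minimum of 20 UMIs and 64 with 500. The number lower (181) was 410, 83, 568 and 16 under the same 4 settings, and 103 against the lower 50% of the score. The pooled ratio of interferon-stimulated genes (2.91) was 3.44 for the top 2.5% and 2.48 for the top 10%, and 3.63 against the lower 50% of the score. It was 2.97 with at most 5% mitochondrial UMIs, 2.97 with TMM factors, 2.88 with the other cells weighted to the same depth, 2.83 with thinning, 2.85 without MX1, 2.88 without MX2 and 2.83 with cells chosen on 50% of their UMIs and read from the rest. Without the cells of highest Scrublet score it was 3.03, without cells with markers of other lineages 2.95, and without score-high cells with at least 5 CXCL10 UMIs, a choice made after seeing the data, 2.87. Among the 32 named genes the direction changed for CCL4 (1.02) and MYBL2 (1.09) with cells thinned and scored again. It also changed for JCHAIN (2.22) without cells with markers of other lineages. AURKB kept its direction with cells thinned and scored again, at 0.905. The cause was not tested. A score without IFIT3 was not run, since no gene was matched to that name here and IFIT3 was not used; the top 5% could differ with it. No paired analysis was possible because there was 1 library of each kind. Lower genes rest on few UMIs in 564 cells, so their ratios are imprecise, and neither pigs nor libraries give a measure of biological spread.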

Other observations

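Score-high cells with and without CXCL10 were set side by side after the spread of CXCL10 was seen. The 50 cells with a CXCL10 UMI had a median of 4211 UMIs and the 514 without 3957. Of the 461 CXCL10 UMIs, 357 lay in the top 1% of the score, where IFIT1 was at 1405, GBP1 at 576 and IFIT2 at 107 CPM. The split by CXCL10 therefore cannot be told apart from the strength of the score. IFIT2 was at 140 against 24.4 CPM (5.72, 3.61 to 8.95), GBP1 at 600 against 212 (2.83, 2.33 to 3.41), and IFIT1 at 1382 against 568 (2.43, 2.15 to 2.74). PSMB9 and TAP1 were at 1.63 (1.39 to 1.90) and 1.58 (1.26 to 1.98). HERC6 and IFI6 were at 1.0 (0.747 to 1.32) and 1.07 (0.995 to 1.14), and all 73 interferon-stimulated genes together at 1.32 (1.28 to 1.36). ZBTB16 was at 1.05 (0.784 to 1.38). The myeloid list had 1 UMI in the 50 cells.

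Genes without a symbol were read apart from the rest. Of 788 with at least 100 UMIs, 17 were at least 2-fold higher and 39 at least 2-fold lower in score-high cells. Among the 8684 genes with a symbol these were 103 (1.19%) and 181 (2.08%). ENSSSCG00000033089 stood at 252 against 68.6 CPM (3.67, 3.36 to 4.0) and ENSSSCG00000017754 at 160 against 44.1 (3.63, 3.25 to 4.04). ENSSSCG00000036224 had 17 UMIs in score-high and 5155 in other cells (0.0683, 0.0398 to 0.110), those of the others in 288 cells.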
